A study of Mus musculus with 33 samples.

Results

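Sepsis was compared with the control state in proNeu1, an early neutrophil progenitor of mouse bone marrow, by bulk RNA sequencing of sorted cells. The comparison takes the libraries that the labels assign to proNeu1, 3 from mice with sepsis and 3 from controls, out of 33 libraries of 11 groups in the series. The sepsis libraries came from mice whose caecum had been ligated and punctured (mid-grade CLP) 3 days earlier, which lets gut bacteria into the abdomen. The control libraries came from mice described as wild type and sorted by the same gates. Strain, sex and age, whether controls had a sham operation, and whether animals were pooled are not given in the sources used here. According to the labels, replicates within a group are biological. The deposited table lists 54752 features, of which 18198 passed the filter on low counts and were tested.

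proNeu1 is the first stage of the neutrophil path after the granulocyte-monocyte progenitor (GMP), and it gives rise to proNeu2 and then to the dividing preNeu. Cells at this stage make the proteins of azurophil granules, among them myeloperoxidase and elastase, whereas proteins of specific granules are made at later stages. During severe infection the marrow turns to emergency granulopoiesis, in which cytokines such as G-CSF and IL-6 signal through STAT3 and the transcription factor C/EBPβ in neutrophil progenitors. Neutrophils also rely on glycolysis for energy.

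Levels are given as CPM (counts per megacount, with TMM library sizes), always in the order of replicates 1, 2 and 3. A gene was called at an adjusted p under 0.05 (edgeR quasi-likelihood test, Benjamini-Hochberg over 18198 genes), and changes are log2 fold changes of sepsis over control ± SE. The sepsis libraries held 6430706, 27012829 and 21035651 counts, and the control libraries held 6781973, 26344365 and 39977745 counts. Within groups, log2 CPM correlated across genes with Pearson's r of 0.958 to 0.967 in sepsis and 0.933 to 0.943 in control libraries, against 0.914 to 0.933 between the groups. The 20 most abundant genes took 9.58% to 10.1% of the counts in sepsis and 13.7% to 14.1% in control libraries.

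One feature of the libraries bears on the results. Among the other 27 libraries, 56 genes varied within groups together with the lysosomal membrane gene Lamp1, with r over 0.8 for each, and this set was chosen after the data were seen. The mean log2 CPM of these 56 genes was 6.64, 6.64 and 6.63 in the sepsis proNeu1 libraries, against 4.74, 4.74 and 5.02 in the control proNeu1 libraries. The same mean also varied among replicates of other groups, at 6.32, 5.65 and 4.73 in sepsis proNeu2 and at 4.83, 6.37 and 6.39 in control preNeu. Of the 56 genes, 46 were called higher and 0 lower in sepsis proNeu1, where 8.3% and 7.3% of all tested genes were called in these directions, with a median log2 fold change of 1.73. Sepsis and this difference between libraries cannot be told apart in proNeu1 alone, so the counts for most lists, and values for many genes, are also given from a fit of all 33 libraries with the 56-gene mean as a covariate, called the covariate fit here. The median SE of the log2 fold changes was 0.458 without and 0.685 with the covariate, so a call can also end there through the wider error. For a gene that is itself among the 56, both its correlation with their mean and a smaller change in the covariate fit are in part fixed by construction. Such members named here are Lamp1, Rac1, Kcnk12, Tbkbp1, Gclm, Rnf187, Nfil3 and Rps2.

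**Figure D1:**
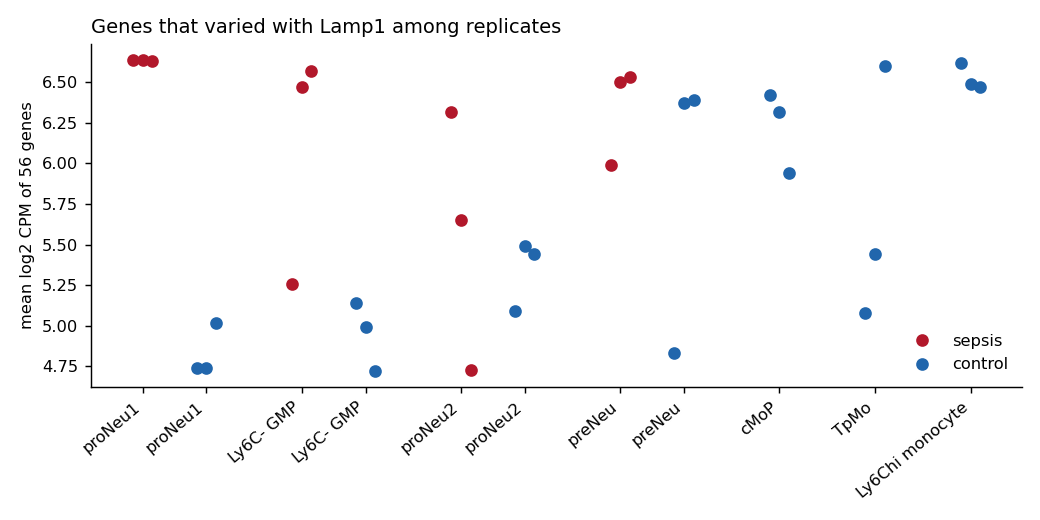
Mean log2 CPM (vertical axis) of the 56 genes that varied with Lamp1 among replicates, 1 point per library, in sepsis (red) and control (blue) groups of each population. The sepsis proNeu1 libraries sit at 6.63 to 6.64 and the control proNeu1 libraries at 4.74 to 5.02, while sepsis proNeu2 spreads over 4.73 to 6.32 and control preNeu over 4.83 to 6.39.

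The fit called 2839 genes in sepsis against control proNeu1, 15.6% of those tested, with 1511 higher (8.3%) and 1328 lower (7.3%). A difference of at least 2-fold was seen in 652 of the higher and 669 of the lower genes, and one of at least 4-fold in 213 and 280. Sepsis and control libraries were fully separated for 5969 genes (32.8%), 3068 with sepsis above and 2901 with sepsis below. Among called genes this held for 1476 of the 1511 higher and 1258 of the 1328 lower. The genes with the largest rises and falls were named only where it held, so their separation is no support beyond the call. The covariate fit called 836 genes (4.59%), 481 higher (2.64%) and 355 lower (1.95%), and 754 of them were called in the same direction without the covariate. Without the 5 libraries of the series under 10 Mcounts (megacounts), among them replicate 1 of both proNeu1 groups, 1745 genes were called. These shares over all genes are the background for the counts of each gene list. Some calls ended when 1 of the 6 proNeu1 libraries was left out. There the library is named, or the number of such fits out of 6 is given, beside the gene or here. This number was 6 for Rps2, 5 for Ly6g, 4 for Clec5a, 4 for Pld4, 3 for Cd200r3, 2 for Prg2, 2 for Gfi1 and 2 for Sod1.

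The label was checked against a panel of genes that mark proNeu1 and its neighbours. Mpo, the myeloperoxidase gene, was at 22860, 25970 and 24200 CPM in sepsis proNeu1, against 52830, 55800 and 58530 CPM in control proNeu1. Every sepsis value lay below every control value. Kit, the stem cell factor receptor of progenitors, was at 193, 151 and 207 CPM in sepsis proNeu1, against 369.8, 400 and 364 CPM in control proNeu1. Ly6g, a marker of mature mouse neutrophils, was at or under 0.367 CPM in sepsis and at 1.91 to 4.66 CPM in control proNeu1. Both groups thus carried transcripts of early neutrophil progenitors. Of the 16 panel genes, 10 were lower and 1 higher in sepsis (7 and 0 in the covariate fit), and Prtn3 (proteinase 3), Ctsg (cathepsin G) and Ms4a3 were not called (log2 fold changes -0.11, 0.40 and 0.09). Xist, the RNA of the inactive X chromosome in females, was present in all 6 libraries, at 155, 166 and 162 CPM in sepsis proNeu1, against 362, 394 and 306 CPM in control proNeu1. It was called lower (-1.14, adjusted p = 0.000771), though not in the covariate fit (adjusted p = 0.129). Sepsis values of Xist also lay below control values in Ly6C- GMP (203 to 258 against 486 to 503 CPM). The same held in proNeu2 (162 to 200 against 369 to 422 CPM) and preNeu (166 to 225 against 385 to 459 CPM). In the control groups of the monocyte path, which share the fit, Xist was at 1.24 CPM or less. Whether groups differed in sex was not tested.

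Among the genes with the largest rises, 2 encode secreted proteins. Lipg (ENSMUSG00000053846.4, GRCm38 chromosome 18, 74939322 to 74961263) encodes endothelial lipase, which acts on lipoprotein phospholipids, and was at 76.7, 166 and 148 CPM in sepsis proNeu1, against 0.823, 0.29 and 1.91 CPM in control proNeu1. Clu (ENSMUSG00000022037.15, GRCm38 chromosome 14, 65968483 to 65981547), the gene of the extracellular chaperone clusterin, was at 129, 168 and 124 CPM in sepsis proNeu1, against 3.84, 1.6 and 3.34 CPM in control proNeu1. Both were near absent from control cells and high in all 3 sepsis libraries. Their log2 fold changes were 6.85 ± 0.57, adjusted p = 6.58e-09 for Lipg and 5.64 ± 0.69, adjusted p = 1.73e-06 for Clu. In the covariate fit they were 6.29 ± 0.66 (adjusted p = 2.31e-06) and 5.05 ± 0.89 (adjusted p = 0.000982).

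Ifitm1 (ENSMUSG00000025491.14, GRCm38 chromosome 7, 140967221 to 140969825), one of the interferon-induced transmembrane genes that restrict virus entry, was at 28.5, 35.3 and 39.4 CPM in sepsis proNeu1, against 3.29, 1.45 and 1.43 CPM in control proNeu1 (4.198 ± 0.36, adjusted p = 9.09e-09). Its relative Ifitm3 was at 34.3, 46.3 and 48.6 CPM in sepsis proNeu1, against 9.33, 6.02 and 7.23 CPM in control proNeu1 (2.56 ± 0.28, adjusted p = 3.72e-07). The groups were fully separated for both genes, and the covariate fit gave 4.49 and 2.75. Of the 7 Ifitm genes tested, these 2 were called and 0 were lower. Il1r2, the decoy receptor that binds IL-1 without signalling, was at 43.4, 114 and 65.5 CPM in sepsis proNeu1, against 5.21, 7.11 and 6.37 CPM in control proNeu1 (3.56 ± 0.51, adjusted p = 1.78e-05). All sepsis values of Il1r2 lay above all control values, and sepsis replicate 2 was the highest. Ankrd52, a subunit of a protein phosphatase complex, had a log2 fold change of 3.46 ± 0.39, adjusted p = 7.11e-07, and Degs2, a sphingolipid desaturase gene, one of 3.46 ± 0.86, adjusted p = 0.00585. Degs2 was not called in the covariate fit, with 3.03 ± 1.18 (adjusted p = 0.16).

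Other genes with large rises were not called in the covariate fit. Cebpb (ENSMUSG00000056501.3, GRCm38 chromosome 2, 167688915 to 167690418) encodes C/EBPβ, the C/EBP factor linked to emergency granulopoiesis, and was at 21.9, 33.3 and 26.8 CPM in sepsis proNeu1, against 0, 0.0726 and 0.119 CPM in control proNeu1. The sum over the 3 libraries was 1613 counts in sepsis and 7 counts in control proNeu1, so the fitted log2 fold change of 8.20 ± 2.14, adjusted p = 0.00834 rests on a few control counts. Within groups of the other 27 libraries Cebpb correlated with the 56-gene mean at r = 0.73, and in the covariate fit its log2 fold change was -0.29 ± 1.84 (adjusted p = 0.988). Cebpb is not among the 56 genes. Kcnk12, a potassium channel gene and one of the 56, was at 49.8, 61.9 and 55.0 CPM in sepsis proNeu1, against 0, 0.363 and 2.17 CPM in control proNeu1 (5.72 ± 1.34, adjusted p = 0.00355), and in the covariate fit at 0.69 ± 0.74 (adjusted p = 0.727). Rac1, a small GTPase of the actin cytoskeleton and also one of the 56, was at 368, 390 and 391 CPM in sepsis proNeu1, against 22.2, 28.2 and 38.1 CPM in control proNeu1 (3.68 ± 0.87, adjusted p = 0.00385), with -0.26 ± 0.25 (adjusted p = 0.686) in the covariate fit. All 3 sepsis libraries lay above all control libraries for these 3 genes.

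Lamp1 itself was at 659, 652 and 637 CPM in sepsis proNeu1, against 53.1, 52.4 and 55.4 CPM in control proNeu1 (3.60 ± 0.69, adjusted p = 0.000538), with 0.38 ± 0.20 (adjusted p = 0.332) in the covariate fit. Tbkbp1, one of the 56, which encodes a partner of the kinase TBK1, was also not called there (4.03 without and 1.22 ± 0.47 (adjusted p = 0.156) with the covariate). Rac1 also lost its call without the 5 shallow libraries (adjusted p = 0.0573). Yrdc, a tRNA modification gene, and Lmo1, a transcriptional adaptor, are outside the 56 and correlated with their mean at r = 0.83 and 0.75. They were called in both fits, with log2 fold changes of 4.85 without and 2.54 with the covariate for Yrdc, and 4.61 and 2.51 for Lmo1. Rnf187, a ubiquitin ligase (3.75 and 1.48), and Gclm, the regulatory subunit of the first enzyme of glutathione synthesis (3.88 and 1.72), are among the 56 and were called in both fits.

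**Figure D2:**
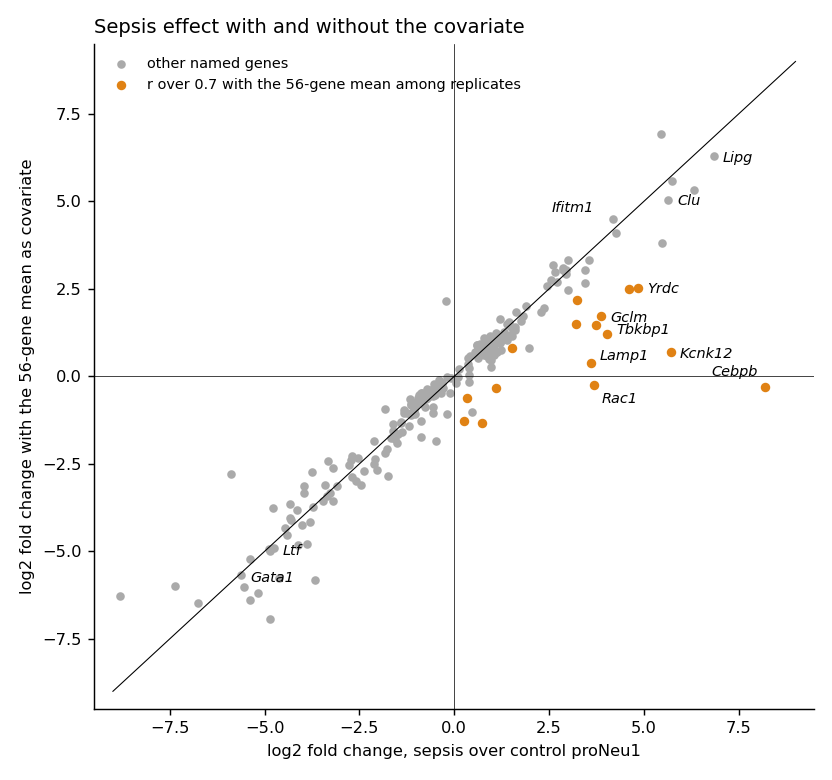
Log2 fold change of sepsis over control proNeu1 (horizontal axis) against the same change in the covariate fit (vertical axis) for the 234 genes of the naming rule, with genes of r over 0.7 in orange. Cebpb lies near 0 on the vertical axis, as do Rac1, Lamp1 and Kcnk12, which are part of the covariate, while Lipg, Clu, Ifitm1 and Ltf stay near the diagonal.

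The bases before the start sites of the 3 genes with the largest rises that could be taken from the RefSeq promoter table are printed here, since Cebpb, Kcnk12 and Yrdc are among the genes with the largest rises. Each line holds 250 bases of GRCm38.p6, 5′ to 3′ on the strand of the gene.
Cebpb, chr2:167688665-167688914, plus strand: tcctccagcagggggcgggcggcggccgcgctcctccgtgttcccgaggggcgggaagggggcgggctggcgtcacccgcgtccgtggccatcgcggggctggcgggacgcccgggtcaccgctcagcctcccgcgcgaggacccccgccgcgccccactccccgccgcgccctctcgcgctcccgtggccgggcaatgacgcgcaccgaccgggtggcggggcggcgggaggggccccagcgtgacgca
Kcnk12, chr17:87797995-87798244, minus strand: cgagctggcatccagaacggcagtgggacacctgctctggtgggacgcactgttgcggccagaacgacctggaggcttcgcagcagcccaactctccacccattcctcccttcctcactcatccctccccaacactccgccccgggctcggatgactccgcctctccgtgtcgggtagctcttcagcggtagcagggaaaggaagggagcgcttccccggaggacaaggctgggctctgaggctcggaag
Yrdc, chr4:124850509-124850758, plus strand: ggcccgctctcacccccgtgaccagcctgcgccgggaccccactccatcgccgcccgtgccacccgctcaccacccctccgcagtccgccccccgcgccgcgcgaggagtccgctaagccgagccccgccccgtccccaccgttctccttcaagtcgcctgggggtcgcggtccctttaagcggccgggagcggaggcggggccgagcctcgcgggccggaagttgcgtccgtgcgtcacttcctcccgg
The sequences are rich in G and C, at 81.6% for Cebpb, 64.8% for Kcnk12 and 76.0% for Yrdc, against a median of 59.2% over 11089 matched promoters. Capitals would mark a match on either strand to the GAS letters TTCNNNGAA of STAT factors, the C/EBP letters TTGCNNAA, the interferon-stimulated response element, the NF-kB motif or the E-box CACGTG, and these 3 windows hold 0 matches. Over all matched promoters the GAS letters occurred in 5.88% of genes called higher, 6.8% of genes called lower and 6.08% of genes tested. The C/EBP letters occurred in 6.66%, 9.73% and 7.76%, the interferon element in 1.9%, 2.62% and 2.86%, and the NF-kB motif in 0.346%, 0.418% and 0.352%. The E-box occurred in 10.8% of genes called higher, 8.05% of genes called lower and 8.17% of genes tested. The median share of G and C was 61.2% in promoters of genes called higher and 58.8% in those of genes called lower. These shares are descriptions without a test, and the part of base composition in the motif shares was not tested.

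Granule genes did not move as 1 group. Of the 12 azurophil granule genes, 5 fell and 1 rose (5 and 0 in the covariate fit), with a median log2 fold change of -0.05, against -0.03 over all genes. Mpo fell with -1.20 ± 0.15, adjusted p = 3.91e-06. Elane, the gene of neutrophil elastase, was at 5235, 6567 and 5627 CPM in sepsis proNeu1, against 16620, 17210 and 17370 CPM in control proNeu1 (-1.55 ± 0.23, adjusted p = 1.87e-05). Lyz2, which encodes lysozyme, was at 205, 183 and 145 CPM in sepsis proNeu1, against 1043, 709.9 and 549.7 CPM in control proNeu1 (-2.11 ± 0.24, adjusted p = 5.68e-07). No sepsis value of these genes reached a control value. Cd63 and Fcnb (ficolin B, -1.66 ± 0.24) were the other members that fell, and Serpinb1a, an inhibitor of neutrophil proteases, was the member that rose (0.63 ± 0.14, adjusted p = 0.00323). The call of Serpinb1a ended without sepsis replicate 2 (adjusted p = 0.0605). The summed level of the list was 36680 to 43480 CPM in sepsis and 78590 to 85680 CPM in control libraries.

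Of the 19 specific granule genes, 6 fell and 4 rose (3 and 3 in the covariate fit, 3 and 5 without the 5 shallow libraries), with a median of -0.30. Ltf (ENSMUSG00000032496.7, GRCm38 chromosome 9, 111019271 to 111042767), the lactoferrin gene, was at 27.9, 37.1 and 37.9 CPM in sepsis proNeu1, against 1357, 649 and 803 CPM in control proNeu1 (-4.76 ± 0.49, adjusted p = 1.39e-07). Ngp, which encodes neutrophilic granule protein, was at 55.9, 152 and 118 CPM in sepsis proNeu1, against 1809, 806 and 996 CPM in control proNeu1 (-3.46 ± 0.52, adjusted p = 3.02e-05). Camp, the gene of the antimicrobial peptide cathelicidin, was at 10.6, 29.6 and 16.6 CPM in sepsis proNeu1, against 290.4, 141 and 166 CPM in control proNeu1 (-3.35 ± 0.41, adjusted p = 2.12e-06). Control replicate 1 was the highest library for all 3 genes, and the groups did not overlap. Mmp8, a collagenase gene, was at 1.19, 3.89 and 0.959 CPM in sepsis proNeu1, against 52.4, 10.8 and 7.87 CPM in control proNeu1 (-3.32 ± 0.75, adjusted p = 0.00251), and it was not called without the 5 shallow libraries (adjusted p = 0.132) or in the covariate fit (adjusted p = 0.163). Olfm4 and Pglyrp1 were the other members that fell, Olfm4 not without control replicate 3 and Pglyrp1 not in 4 of the 6 fits.

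Among the members that rose, Lcn2 and Hp also encode acute phase proteins. Lcn2, the gene of the siderophore-binding lipocalin 2, was at 131, 181 and 154 CPM in sepsis proNeu1, against 39.8, 24.7 and 27.5 CPM in control proNeu1 (2.36 ± 0.31, adjusted p = 6.05e-06). Hp, which encodes haptoglobin, was at 1143, 1393 and 1234 CPM in sepsis proNeu1, against 777, 818 and 745 CPM in control proNeu1 (0.69 ± 0.11, adjusted p = 6.75e-05). Anxa1, the annexin A1 gene, was at 1302, 2666 and 1772 CPM in sepsis proNeu1, against 1011, 903 and 1062 CPM in control proNeu1 (0.95 ± 0.19, adjusted p = 0.00077). Sepsis lay above control in every library for these 3 genes, and all 3 were called in the covariate fit. Chil3, which encodes a chitinase-like protein, was at 887, 2582 and 1199 CPM in sepsis proNeu1, against 762.3, 548 and 307 CPM in control proNeu1 (1.53 ± 0.38, adjusted p = 0.00583), and without sepsis replicate 2 it was not called (adjusted p = 0.109).

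Among the 33 late neutrophil genes, 4 rose and 6 fell (3 and 1 in the covariate fit, 4 and 3 without the 5 shallow libraries), against 8.3% and 7.3% of all tested genes. Dgat2, which makes triglycerides, was at 501, 720.4 and 712 CPM in sepsis proNeu1, against 77.1, 112 and 62.0 CPM in control proNeu1 (2.94 ± 0.22, adjusted p = 2.18e-09), and Clec4e, the gene of the lectin receptor Mincle, was at 56.1, 60.3 and 68.6 CPM in sepsis proNeu1, against 26.1, 26.6 and 27.6 CPM in control proNeu1 (1.21 ± 0.20, adjusted p = 0.000107). Retnlg, a resistin-like gene of mature neutrophils, was at 0.895, 0 and 0.192 CPM in sepsis proNeu1, against 9.05, 2.83 and 2.43 CPM in control proNeu1 (-4.14 ± 0.89, adjusted p = 0.00163). Both rising genes were separated from control in every library. Retnlg was low in both groups and was not called in the covariate fit (adjusted p = 0.0521), where the 1 member called lower was Hdc. Ncf1, a cytosolic subunit of the phagocyte NADPH oxidase, was at 539, 581 and 562 CPM in sepsis proNeu1, against 226, 226 and 154 CPM in control proNeu1 (1.48 ± 0.18, adjusted p = 1.58e-06), while Cyba, its membrane subunit p22phox, was lower (-0.73 ± 0.16, adjusted p = 0.00226). In the covariate fit Ncf1 was called and Cyba was not (adjusted p = 0.166). The other 4 of the 6 oxidase genes were not called.

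**Figure D3:**
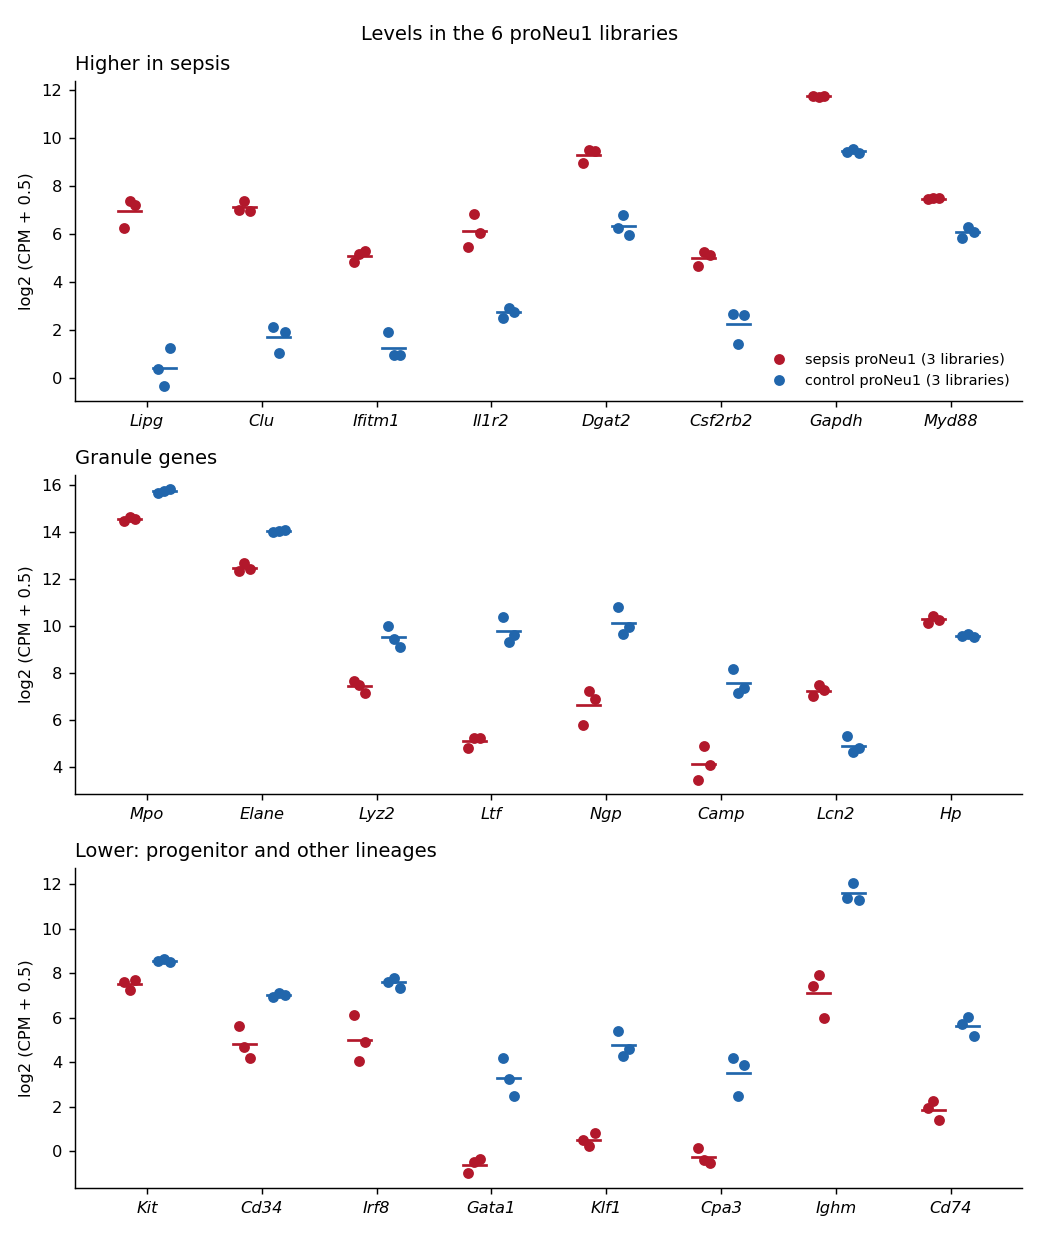
Log2 of CPM plus 0.5 (vertical axis) of 24 genes in each sepsis (red, left) and control (blue, right) proNeu1 library, with short lines at the group means. The groups are separated for every gene shown: sepsis lies above control for the upper row and for Lcn2 and Hp, and below control for the other granule genes and the lower row.

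Part of the genes of glycolysis and its regulation rose. Of the 24 tested members of this list, 12 rose and 1 fell, with a median log2 fold change of 0.71, and 11 rose in the covariate fit. Over all tested genes 8.3% rose. Gapdh, the glyceraldehyde-3-phosphate dehydrogenase gene, was at 3424, 3385 and 3507 CPM in sepsis proNeu1, against 692, 746 and 677 CPM in control proNeu1 (2.29 ± 0.21, adjusted p = 2.66e-08). Its many pseudogenes make the level uncertain. Slc2a1, the glucose transporter GLUT1, was at 53.4, 44.1 and 57.4 CPM in sepsis proNeu1, against 12.3, 11.8 and 21.1 CPM in control proNeu1 (1.76 ± 0.31, adjusted p = 0.000231), and Ndrg1, a hypoxia-induced gene, at 25.9, 25.9 and 19.1 CPM in sepsis proNeu1, against 5.49, 5.91 and 8.3 CPM in control proNeu1 (1.82 ± 0.22, adjusted p = 1.58e-06). No sepsis value of these genes overlapped with control. The other members that rose were Pgam1, Tpi1, Ldha, Gpi1, Pgk1, Pfkp, Pfkfb3 and Eno1, which encode enzymes of the pathway, and the lactate exporter gene Slc16a3. The call of Pfkfb3 ended in 4 of the 6 fits. Hk3, the myeloid hexokinase, was the member that fell (-0.49 ± 0.11, adjusted p = 0.00327).

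The pentose phosphate pathway, which makes NADPH, had 3 of 7 members higher, the same 3 as in the covariate fit. They were G6pdx, its first enzyme (0.94 ± 0.10, adjusted p = 1.63e-07), Pgd (1.20 ± 0.17, adjusted p = 1.87e-05) and Tkt (0.80 ± 0.13, adjusted p = 7.86e-05). G6pdx was at 398, 450.3 and 446 CPM in sepsis proNeu1, against 223, 254 and 196 CPM in control proNeu1. The rise was under 2-fold in G6pdx and Tkt and even across the libraries.

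Genes of lipid storage and oxidation gave 10 higher and 1 lower of 25 tested (8 and 0 in the covariate fit), with a median of 0.67. Beside Lipg and Dgat2, the members that rose were Plin3, which coats lipid droplets, the lipolysis genes Abhd5, Pnpla2 and Lipe, the fatty acid oxidation genes Acadl and Cpt1a, Acot1 and Ucp2. The calls of Pnpla2 and Lipe ended in 3 and 2 of the 6 fits, without the 5 shallow libraries and in the covariate fit, and that of Acot1 ended without sepsis replicate 2. Plin3 had a log2 fold change of 1.26 ± 0.13, adjusted p = 1.01e-07 and Acadl one of 1.74 ± 0.21, adjusted p = 1.73e-06. Acadm, the medium-chain acyl-CoA dehydrogenase, fell (-0.76 ± 0.15, adjusted p = 0.0007). Triglyceride synthesis, droplet and breakdown genes thus all had members that rose.

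Subunits of the respiratory chain were split, with 6 higher and 6 lower of 22 (3 and 3 in the covariate fit). Atp5b, the beta subunit of ATP synthase, was at 2388, 2329 and 2423 CPM in sepsis proNeu1, against 899, 941 and 896 CPM in control proNeu1 (1.38 ± 0.18, adjusted p = 4.58e-06). Sdhb, a subunit of succinate dehydrogenase, was at 101, 98.5 and 105 CPM in sepsis proNeu1, against 181, 177 and 201 CPM in control proNeu1 (-0.88 ± 0.14, adjusted p = 4.14e-05), and Ndufb8 of complex I was also lower (-1.02 ± 0.18, adjusted p = 0.000176). Of the 13 genes encoded by mitochondrial DNA, 2 were lower and 0 higher (0 and 0 in the covariate fit). The cholesterol synthesis list had 4 of 23 genes higher, a call count of 0 in the covariate fit and 1 without the 5 shallow libraries.

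**Figure D4:**
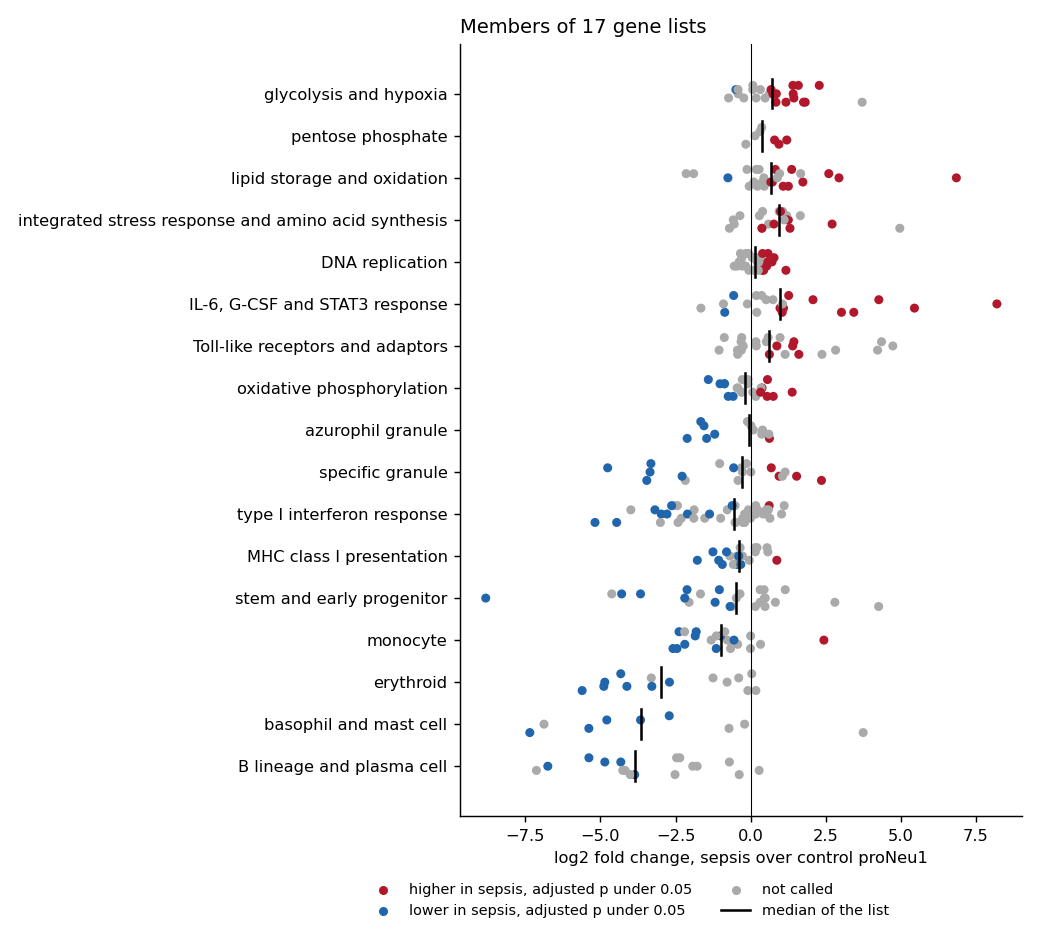
Log2 fold change of sepsis over control proNeu1 (horizontal axis) for each tested member of 17 gene lists (rows), red where called higher, blue where called lower and grey where not called, with a black line at the median of each list. The glycolysis, lipid and amino acid synthesis lists lie mostly right of 0, and the erythroid, basophil and B lineage lists mostly left.

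Of 21 response genes of IL-6, G-CSF and STAT3, 10 rose and 2 fell, with a median of 0.98, and the covariate fit called 4 higher and 0 lower. Il4ra, the IL-4 receptor alpha chain, had a log2 fold change of 2.08 ± 0.18, adjusted p = 1.06e-08, and Hif1a, the oxygen-regulated transcription factor, one of 1.09 ± 0.16, adjusted p = 2.46e-05. Socs3, the feedback inhibitor of this pathway, was at 18.8, 10.9 and 12.5 CPM in sepsis proNeu1, against 1.37, 1.02 and 0.0954 CPM in control proNeu1 (4.27 ± 1.15, adjusted p = 0.0106). All sepsis values of Socs3 exceeded the control values, and its call ended without control replicate 3 (adjusted p = 0.0603), without the 5 shallow libraries (adjusted p = 0.0672) and in the covariate fit (adjusted p = 0.124). Saa3, an acute phase gene, summed to 90 counts in sepsis and 2 counts in control libraries. The other members called higher were Cebpb, Bcl3, Tnfaip6, Pim1, Jak3 and Junb. The calls of Tnfaip6 and Junb ended in 5 and 4 of the 6 fits, and that of Saa3 without control replicate 3. Csf3r, the receptor of G-CSF, was not called, at 362, 395 and 339.6 CPM in sepsis proNeu1, against 449, 406 and 389 CPM in control proNeu1, and Il6ra was lower (-0.56 ± 0.18, adjusted p = 0.0266), though not without control replicate 2 (adjusted p = 0.19), sepsis replicate 2 or sepsis replicate 3.

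Receptors of other cytokines also differed, with 7 higher and 3 lower of 29 (4 and 1 in the covariate fit). Csf2rb2, a beta chain of the IL-3 receptor in mice, was at 25.4, 37.4 and 34.9 CPM in sepsis proNeu1, against 5.9, 2.18 and 5.77 CPM in control proNeu1 (2.86 ± 0.41, adjusted p = 1.5e-05), and the near-identical Csf2rb had 1.99 ± 0.14, adjusted p = 1.44e-09. Reads of this pair could be split between them. Both stood above control in every library. Kit had the largest fall among the receptor genes called lower (-1.04 ± 0.19, adjusted p = 0.000293).

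Receptors of bacterial products rose in part. Among 24 Toll-like receptor and adaptor genes, 5 were higher and 0 lower (2 and 0 in the covariate fit). Myd88, the adaptor shared by most of these receptors, was at 175, 182 and 179 CPM in sepsis proNeu1, against 57.7, 77.9 and 67.0 CPM in control proNeu1 (1.401 ± 0.13, adjusted p = 2.07e-08), and in the covariate fit at 1.51. Tlr2, which recognises bacterial lipoproteins, was at 41.5, 32.4 and 45.0 CPM in sepsis proNeu1, against 12.1, 13.6 and 13.1 CPM in control proNeu1 (1.61 ± 0.24, adjusted p = 2.74e-05). Sepsis and control values did not overlap for either gene. Tlr1, Tlr4 and Irak4 were the other members called, and their calls ended in 4, 5 and 2 of the 6 fits. The NF-kB response list had 4 of 24 genes higher and 0 lower, with Nfkbid, an inhibitor-like cofactor of NF-kB, at 34.0, 37.4 and 28.4 CPM in sepsis proNeu1, against 9.6, 14.3 and 8.8 CPM in control proNeu1 (1.60 ± 0.29, adjusted p = 0.000291). Of these 4, 2 were called in the covariate fit. Of 19 immediate early genes 4 were called higher and 0 in the covariate fit.

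Most interferon response genes were not called, and those called were mostly lower. Of 40 type I interferon response genes 9 fell and 1 rose, with a median of -0.57 (2 and 0 in the covariate fit, 7 and 0 without the 5 shallow libraries). Xaf1, an interferon-induced apoptosis factor, was at 0.298, 0.294 and 0.48 CPM in sepsis proNeu1, against 5.49, 2.47 and 2.48 CPM in control proNeu1 (-3.19 ± 0.65, adjusted p = 0.000974). Irf9, which carries the interferon signal to DNA, had a log2 fold change of -1.37 ± 0.25, adjusted p = 0.000375, and was not called in the covariate fit (adjusted p = 0.054). Eif2ak2, the double-stranded RNA-activated kinase PKR, was the member that rose, though not in 4 of the 6 fits, and Xaf1 was low in both groups. Of 23 interferon-gamma response genes 4 fell and 0 rose (1 and 0 in the covariate fit, 3 and 0 without the 5 shallow libraries), with the GTPase gene Igtp at 15.1, 18.5 and 14.7 CPM in sepsis proNeu1, against 28.5, 31.0 and 46.2 CPM in control proNeu1 (-1.13 ± 0.22, adjusted p = 0.000522).

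Antigen presentation by MHC class I had 8 of 20 genes lower and 1 higher (4 and 1 in the covariate fit). Tapbp, the tapasin gene of peptide loading, was at 154, 142 and 132 CPM in sepsis proNeu1, against 330.4, 355 and 335 CPM in control proNeu1 (-1.25 ± 0.15, adjusted p = 1.22e-06). Psmb10, a catalytic subunit of the immunoproteasome, was at 48.5, 48.4 and 47.4 CPM in sepsis proNeu1, against 103, 87.7 and 110.5 CPM in control proNeu1 (-1.06 ± 0.14, adjusted p = 4.58e-06). Both were below control in every sepsis library. The immunoproteasome genes Psmb9 and Psme2, and B2m, Tap2, H2-Q6 and Pdia3, were the other members that fell. The calls of Pdia3, H2-Q6, Tap2 and B2m ended in 6, 5, 3 and 2 of the 6 fits, and all 4 ended without the 5 shallow libraries.

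Some progenitor and monocyte genes were lower in sepsis proNeu1. Of 25 stem and early progenitor genes 8 fell and 0 rose (3 and 0 in the covariate fit). Cd34, a surface marker of stem and progenitor cells, was at 48.8, 24.7 and 17.8 CPM in sepsis proNeu1, against 122, 138 and 129 CPM in control proNeu1 (-2.12 ± 0.57, adjusted p = 0.0108). Its call ended without sepsis replicate 2, without sepsis replicate 3 (adjusted p = 0.0783) and in the covariate fit (adjusted p = 0.0631). Kit was among the 3 members called lower in the covariate fit. Of 21 monocyte genes 9 fell and 1 rose (2 and 0 in the covariate fit). Irf8, which encodes a factor that directs progenitors to monocytes and dendritic cells, was at 68.3, 15.9 and 29.2 CPM in sepsis proNeu1, against 195, 220.3 and 161 CPM in control proNeu1 (-2.38 ± 0.61, adjusted p = 0.00739). Sepsis replicate 1 was the highest sepsis library for Cd34 and Irf8, and no sepsis value reached control. The call of Irf8 ended without sepsis replicate 2 (adjusted p = 0.0558) and in the covariate fit (adjusted p = 0.0672).

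Among 42 lineage transcription factors, 8 were higher and 11 lower (3 and 4 in the covariate fit). Nfil3, a bZIP factor, was at 40.3, 45.9 and 46.9 CPM in sepsis proNeu1, against 6.31, 3.74 and 4.84 CPM in control proNeu1 (3.20 ± 0.45, adjusted p = 1.48e-05), with 1.49 in the covariate fit, whose 56 genes include it. Id1 and Id2, which encode inhibitors of E proteins, had log2 fold changes of 1.63 ± 0.38, adjusted p = 0.00356 and 1.31 ± 0.26, adjusted p = 0.000801. Gfi1, whose product represses monocyte genes in neutrophil progenitors, was at 63.7, 96.6 and 67.4 CPM in sepsis proNeu1, against 41.8, 38.6 and 35.5 CPM in control proNeu1 (0.98 ± 0.28, adjusted p = 0.0163). Its groups did not overlap, but it was not called without sepsis replicate 2 (adjusted p = 0.119), without control replicate 3 or in the covariate fit (adjusted p = 0.798). Cebpa, Cebpd, Cebpe, Spi1 and Runx1, factors of myeloid development, were not called, with log2 fold changes of 0.35, 0.74, -0.89, 0.25 and -0.40. Surface genes gave 6 lower and 2 higher of 26 adhesion and chemokine receptor genes (3 and 1 in the covariate fit). Cd24a, a marker of neutrophil maturation, was at 384, 384 and 339 CPM in sepsis proNeu1, against 127, 127 and 128 CPM in control proNeu1 (1.54 ± 0.18, adjusted p = 1.63e-06). Vcam1, the adhesion gene that marks the next stage proNeu2, was lower (-1.50 ± 0.39, adjusted p = 0.00771), as were the tetraspanin genes Cd9 (-1.61 ± 0.21, adjusted p = 4.95e-06) and Cd81 (-0.94 ± 0.15, adjusted p = 4.27e-05).

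Some DNA replication genes rose by small amounts. Of 28 members 9 rose and 0 fell (7 and 0 in the covariate fit), with log2 fold changes of 0.39 for the sliding clamp gene Pcna to 1.18 for the helicase cofactor Cdc45. The call of Pcna ended in 4 of the 6 fits. Rrm2, a subunit of ribonucleotide reductase, was at 1076, 1326 and 1311 CPM in sepsis proNeu1, against 688, 681 and 793 CPM in control proNeu1 (0.78 ± 0.15, adjusted p = 0.000702). Ccne1, cyclin E1, which drives entry into S phase, was at 123, 102 and 120.4 CPM in sepsis proNeu1, against 30.7, 25.5 and 36.6 CPM in control proNeu1 (1.89 ± 0.37, adjusted p = 0.000593), and Ccnd3, cyclin D3, at 568, 668 and 714 CPM in sepsis proNeu1, against 384, 376 and 330.1 CPM in control proNeu1 (0.84 ± 0.10, adjusted p = 2.29e-06). Every sepsis value of these genes was above control. The 28 genes of G2 and M phase gave 3 higher and 4 lower (3 and 0 in the covariate fit). Ccna2, cyclin A2, was at 311, 314 and 360.1 CPM in sepsis proNeu1, against 147, 166 and 146 CPM in control proNeu1 (1.10 ± 0.14, adjusted p = 3.06e-06), while Nusap1, a spindle gene, was lower (-0.87 ± 0.17, adjusted p = 0.000655).

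Genes of the ATF4 stress response and amino acid synthesis rose in part. Of 21 tested members 7 rose and 0 fell, with a median of 0.95 (4 and 0 in the covariate fit). Atf4 was at 187, 199.5 and 215 CPM in sepsis proNeu1, against 81.6, 67.0 and 103 CPM in control proNeu1 (1.26 ± 0.18, adjusted p = 1.66e-05). Psat1, of serine synthesis, was at 279.9, 267 and 322 CPM in sepsis proNeu1, against 100.5, 114 and 135 CPM in control proNeu1 (1.31 ± 0.20, adjusted p = 2.74e-05). Both were higher in every sepsis library, and Mthfd2 (1.22 ± 0.20) and Shmt2 (1.00 ± 0.19), of mitochondrial one-carbon metabolism, were higher too. The ribosome biogenesis list gave 6 higher and 1 lower of 26, and 0 and 1 in the covariate fit. Cytosolic ribosomal protein genes gave 4 higher of 26, and 0 in the covariate fit. Pmaip1, which encodes the cell death factor NOXA, was at 28.5, 50.1 and 40.4 CPM in sepsis proNeu1, against 2.47, 6.24 and 6.3 CPM in control proNeu1 (2.94 ± 0.45, adjusted p = 4.04e-05), and Bcl2, which opposes cell death, at 9.54, 5.07 and 3.5 CPM in sepsis proNeu1, against 25.6, 26.1 and 23.2 CPM in control proNeu1 (-2.09 ± 0.46, adjusted p = 0.00194). The groups did not overlap for either gene.

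Marker transcripts of several other lineages were lower in sepsis proNeu1. In bulk samples, fewer cells of a type and less RNA per cell cannot be told apart. The 14 erythroid markers summed to 47.0 to 47.8 CPM in sepsis and 248 to 384 CPM in control libraries, with 7 of 14 tested called lower (5 in the covariate fit). Klf1, the erythroid Krüppel-like factor, was at 0.895, 0.661 and 1.25 CPM in sepsis proNeu1, against 41.4, 18.6 and 23.7 CPM in control proNeu1 (-4.89 ± 0.66, adjusted p = 7.61e-06). Gata1, the erythroid and megakaryocyte factor, was at 0, 0.22 and 0.288 CPM in sepsis proNeu1, against 17.6, 8.92 and 5.06 CPM in control proNeu1 (-5.61 ± 0.87, adjusted p = 4.57e-05). Rhd, of the Rh blood group complex, was at 0.746, 0.734 and 0.863 CPM in sepsis proNeu1, against 22.2, 19.8 and 26.6 CPM in control proNeu1 (-4.86 ± 0.68, adjusted p = 1.27e-05). Each was near 1 CPM or below in every sepsis library. Aqp1, Ermap and Car1, genes of red cell membranes and carbonic anhydrase, were also among the 15 largest falls of called genes at 20 CPM or more without overlap (-4.40, -4.33 and -4.12), and Ermap was not called in the covariate fit (adjusted p = 0.0609).

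The 11 basophil and mast cell markers summed to 87.6 to 144 CPM in sepsis and 702 to 716 CPM in control libraries, with 5 of 9 tested called lower (4 in the covariate fit, 3 without the 5 shallow libraries). Cpa3, mast cell carboxypeptidase, was at 0.597, 0.257 and 0.192 CPM in sepsis proNeu1, against 17.8, 5.15 and 13.9 CPM in control proNeu1 (-5.39 ± 0.65, adjusted p = 1.63e-06), and Prss34, a basophil protease, at 4.47, 1.58 and 0.959 CPM in sepsis proNeu1, against 72.7, 33.5 and 51.9 CPM in control proNeu1 (-4.79 ± 0.67, adjusted p = 1.17e-05). Hdc, the histamine-forming enzyme, was at 90.1, 124 and 66.9 CPM in sepsis proNeu1, against 584, 653 and 600.4 CPM in control proNeu1 (-2.71 ± 0.38, adjusted p = 1.09e-05). All 3 were lower in every sepsis library. Hdc made up most of the summed level in all 6 libraries, and it is also a member of the late neutrophil list. Mcpt8, another basophil protease gene, was not called (-0.72, adjusted p = 0.185). Fcer1a and Cd200r3 were at 0 in every sepsis library, and Mcpt4 and Tpsb2 in all 6 libraries.

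The 20 markers of B lineage and plasma cells summed to 108 to 328 CPM in sepsis and 3536 to 6573 CPM in control libraries, with 5 of 17 tested called lower (4 in the covariate fit). Ighm, the IgM heavy chain constant region, was at 172, 238 and 62.1 CPM in sepsis proNeu1, against 2665, 4299 and 2492 CPM in control proNeu1 (-4.32 ± 0.58, adjusted p = 6.82e-06). Igkc, of the kappa light chain, was at 20.1, 31.9 and 11.9 CPM in sepsis proNeu1, against 642, 1431 and 612 CPM in control proNeu1 (-5.39 ± 1.14, adjusted p = 0.00139), and Jchain at 20.9, 16.3 and 4.99 CPM in sepsis proNeu1, against 310.2, 578 and 305 CPM in control proNeu1 (-4.86 ± 1.09, adjusted p = 0.00248). Sepsis replicate 3 was the lowest library for all 3 genes. Ighd, Ms4a1 and Pax5, defining B cell genes, were at 0 in the sepsis libraries.

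Of 17 MHC class II and dendritic cell genes 5 fell and 0 rose (3 and 0 in the covariate fit, 3 and 0 without the 5 shallow libraries), with sums over all 18 markers of 75.7 to 99.0 CPM in sepsis and 213 to 286 CPM in control libraries. Cd74, the invariant chain, was at 3.28, 4.22 and 2.11 CPM in sepsis proNeu1, against 52.4, 63.8 and 35.7 CPM in control proNeu1 (-3.97 ± 0.59, adjusted p = 2.44e-05). Nkg7 (-1.38 ± 0.19, adjusted p = 1.09e-05) was the 1 T and NK gene called of 5 tested. Of the 16 markers, 11 were at 0 in all sepsis and 9 in all control libraries, and Cd3e and Ncr1 were at 0 in both groups. The eosinophil list gave 2 lower of 10 (1 in the covariate fit), the macrophage list 2 of 13 (1), and the megakaryocyte and stroma lists 0 of 9 and 0 of 8. The part of cells of other lineages in these results and in the falls of granule, progenitor and monocyte genes was not tested.

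The same contrast was available in Ly6C- GMP, proNeu2 and preNeu, each with its own control libraries, and the difference of the sepsis effects was tested gene by gene. The effect in proNeu1 differed from that in Ly6C- GMP for 81 genes (0.445% of those tested), from that in proNeu2 for 77 (0.423%), from that in preNeu for 836 (4.59%) and from the mean of the 3 for 103 (0.566%). In the covariate fit these counts were 65, 8, 508 and 10. Of the 1511 genes higher in proNeu1, 1044 (69.1%) were also called higher in Ly6C- GMP, 983 (65.1%) in proNeu2 and 463 (30.6%) in preNeu, which are 55.8%, 57.2% and 33.6% of the genes called higher there. All genes called higher made up 10.3% of those tested in Ly6C- GMP, 9.45% in proNeu2 and 7.57% in preNeu. Of the 1328 lower genes, 725 (54.6%), 743 (55.9%) and 317 (23.9%) were called lower there too, which are 53.7%, 53.9% and 41.3% of the genes called lower in those populations, where 7.42%, 7.57% and 4.21% of all tested genes were called lower. Whether libraries of different populations came from the same animals is not given in the sources used here.

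Ltf, Ngp, Camp and Mmp8, of the specific granule list, fell more in proNeu1 than in the mean of the other 3 populations, while for other members of the list the difference was -0.38 ± 0.35 (adjusted p = 0.832) for Lcn2, -0.08 ± 0.43 (adjusted p = 1) for Chil3 and 0.21 ± 0.22 (adjusted p = 0.879) for Anxa1. Ltf averaged 34.3 ± 5.55 CPM in sepsis and 936 ± 372 CPM in control proNeu1 (SD, n = 3 each), 18 ± 7.77 and 21.9 ± 4.52 in Ly6C- GMP, 127 ± 2.05 and 423 ± 201 in proNeu2, and 11480 ± 3379 and 39320 ± 9153 in preNeu. The log2 fold change of proNeu1 minus the mean of the other 3 was -3.50 ± 0.51 (adjusted p = 0.0017) for Ltf, -2.68 ± 0.56 (adjusted p = 0.0247) for Ngp, -2.15 ± 0.45 (adjusted p = 0.0241) for Camp and -3.52 ± 0.84 (adjusted p = 0.0471) for Mmp8. The call of Mmp8 within proNeu1 ended without the 5 shallow libraries and in the covariate fit. Over all genes this contrast called 103, against 10 in the covariate fit and 8 to 186 when single libraries were left out. Yrdc rose more in proNeu1 than in the mean of the other 3, by 3.24 ± 0.73 (adjusted p = 0.0357). Taken singly, its difference was called against preNeu (3.695 ± 0.89, adjusted p = 0.0134). It was not called against Ly6C- GMP (2.353 ± 0.86, adjusted p = 0.3635) or proNeu2 (3.665 ± 0.87, adjusted p = 0.0554). Yrdc also correlated with the 56-gene mean at r = 0.83. The log2 fold changes of Mpo were -1.20 in proNeu1, -0.86 in Ly6C- GMP, -1.21 in proNeu2 and 0.52 in preNeu.

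Against Ly6C- GMP, H2-Ab1 and Id2 stood apart. H2-Ab1, an MHC class II chain, averaged 8.14 ± 4.3 CPM in sepsis and 14 ± 1.68 CPM in control proNeu1, against 10.7 ± 1.97 and 1195 ± 182 CPM in Ly6C- GMP (SD, n = 3 each). The effects differed by 6.03 ± 0.51 (adjusted p = 4.25e-08). Id2 rose in proNeu1 (1.31) and had a log2 fold change of -1.37 in Ly6C- GMP, a difference of 2.68 ± 0.37 (adjusted p = 0.000215). Emilin2, an extracellular matrix glycoprotein gene, was at 194, 191 and 206 CPM in sepsis proNeu1, against 20.6, 22.5 and 19.0 CPM in control proNeu1. Its log2 fold change was 3.25 in proNeu1 and 0.37 in Ly6C- GMP, a difference of 2.88 ± 0.39 (adjusted p = 0.000215).

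Against preNeu, Ahnak and Capn2 moved in opposite directions. Ahnak, a giant scaffold protein gene, averaged 0.774 ± 0.699 CPM in sepsis and 5.49 ± 2.8 CPM in control proNeu1, and 54.1 ± 20.7 and 1.83 ± 0.579 CPM in preNeu (SD, n = 3 each). The log2 fold change was -3.27 in proNeu1 and 5.00 in preNeu, a difference of -8.26 ± 0.74 (adjusted p = 1.63e-07). Capn2, a calpain protease gene, averaged 0.815 ± 0.359 CPM in sepsis and 4.75 ± 3.05 CPM in control proNeu1 (SD, n = 3 each). Its log2 fold changes in proNeu1 and preNeu were -2.69 and 5.78, a difference of -8.48 ± 0.82 (adjusted p = 3.37e-07). Both genes were low in proNeu1 whatever the condition. Sod1, the cytosolic superoxide dismutase, also differed, with -0.56 in proNeu1 and 1.44 in preNeu (-1.998 ± 0.21 (adjusted p = 8.5e-07)).

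**Figure D5:**
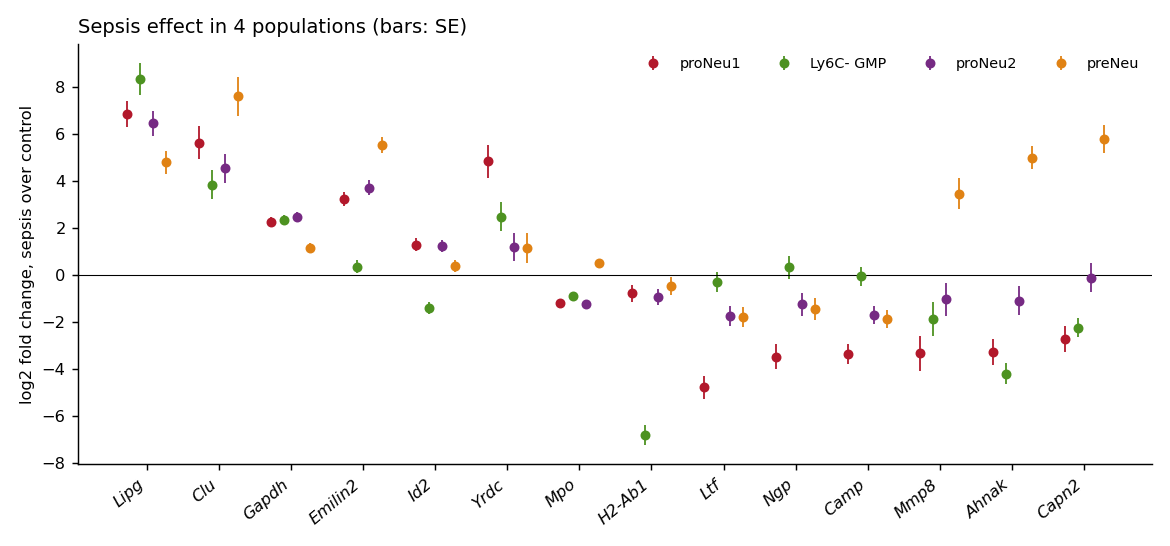
Log2 fold change of sepsis over control (vertical axis) of 14 genes in proNeu1 (red), Ly6C- GMP (green), proNeu2 (purple) and preNeu (orange), with bars for the SE of each estimate. Ltf, Ngp and Camp lie lowest in proNeu1, Lipg, Clu and Gapdh are above 0 in all 4 populations, and Ahnak and Capn2 are above 0 in preNeu only among the 4.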

How the data were processed

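RNA of sorted mouse bone marrow cells was extracted with PicoPure and made into libraries by SMARTSeq v2 and Nextera XT, per the labels' protocols. The deposited gene counts came from STAR alignments to GRCm38 and featureCounts, per the submitters' processing notes. Versions, strand setting and the handling of reads with several positions are not given in the sources used here, so antisense genes, pseudogene families and near-identical genes (Gapdh, Csf2rb and Csf2rb2, Ifitm and immunoglobulin genes) are uncertain. Of counts from 1 to 10, 76.2% were even, and halved counts were tried as an alternative. The deposited counts of all 33 libraries (5.52 to 40.0 Mcounts, 11 groups of 3) were fitted with edgeR 4.0.16 in R 4.3.3 (TMM, filterByExpr, robust quasi-likelihood tests, 22 residual degrees of freedom), and the method was tested on simulated data. The SE was taken as the log2 fold change divided by the root of F. Gene coordinates are those of the deposited table, and promoters are from RefSeq (GRCm38.p6).

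The naming rule takes the 15 strongest rises and 15 strongest falls among called genes at 20 CPM or more without overlap between groups, up to 3 in each direction per list, a panel, and the 6 with the lowest p per difference at 20 CPM or more. From these mostly genes whose calls held in the alternatives are given, and further list members were named after their values were seen. Klhl3 (-3.88), Gdf3 (-3.81) and Plbd1 (-3.40) are among the 15 falls but were not described above. They were called in the covariate fit and without the 5 shallow libraries, and the counts of named genes below leave them out. The members and lists were chosen with earlier results of these data known. Alternatives were DESeq2 1.42.0, limma 3.58.1, RLE factors, 2 other filters, halved counts, a test against a fold of 1.5, fewer libraries and each library left out; the covariate of the 56-gene mean was added after the data were seen.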

Additional observations from a re-analysis of the deposited data

Results flagged for a closer look

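Genes were picked out here because the sepsis effect in proNeu1 differed from that in another population in a test of the difference itself (adjusted p under 0.05 over 18198 genes). The values are log2 fold changes in proNeu1 minus those in the other population.

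Against Ly6C- GMP the differences were 6.03 for H2-Ab1, 3.46 for Naaa, 2.88 for Emilin2, 2.68 for Id2, -1.86 for Mcemp1 and -2.35 for the lectin receptor gene Clec5a. For Clec5a the log2 fold change was 0.61 in proNeu1 and 2.96 in Ly6C- GMP, and for Mcemp1 0.85 and 2.71.

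Against proNeu2 they were -3.67 for Prg2, -3.80 for Epx, -2.43 for Milr1, 2.97 for Ybx1, 1.51 for Edem1 and 1.80 for Tmem248. The sepsis effect within proNeu1 was not called for Epx and Milr1 with or without the covariate. For Prg2, Ybx1, Edem1 and Tmem248 it was called, but not in the covariate fit (adjusted p = 0.173, 0.257, 0.114 and 0.138). Prg2 and Epx encode eosinophil granule proteins. Prg2 was at 12.98, 7.85 and 4.08 CPM in sepsis proNeu1, against 28.5, 25.5 and 18.6 CPM in control proNeu1, and it averaged 82.1 ± 35.5 CPM in sepsis and 19.8 ± 5.63 CPM in control proNeu2 (SD, n = 3 each).

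Against preNeu they were -8.48 for Capn2, -8.26 for Ahnak, -4.82 for Pld4, -3.21 for Ctsc, -1.998 for Sod1 and -1.94 for Tpd52. Ctsc encodes cathepsin C, which activates neutrophil serine proteases, and had log2 fold changes of 0.37 in proNeu1 and 3.58 in preNeu.

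Against the mean of the other 3 populations the differences were 3.24 for Yrdc, -3.50 for Ltf, -2.68 for Ngp, -2.15 for Camp and -3.52 for Mmp8. Groups of 3 libraries were too small for a test of single outlying libraries.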

How the results depend on the processing

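The 2839 genes called (1511 higher, 1328 lower) became 1745 (986 and 759) without the 5 shallow libraries, 661 (357 and 304) against a fold change of 1.5, and 836 (481 and 355) with the covariate. Leaving out each library gave 1880 to 2266 genes (1050 to 1255 higher, 814 to 1065 lower), with the lowest total, 1880, without sepsis replicate 3, and 817 and 814 lower genes without sepsis replicates 1 and 3. DESeq2, limma, RLE factors, the other filters, halved counts and a fit of only the 6 libraries gave 2277 to 3622. The genes that differed between proNeu1 and Ly6C- GMP, proNeu2, preNeu and the mean of the 3 numbered 213, 250, 1467 and 308 with DESeq2, and 124, 1470 and 181 with limma for the last 3. For proNeu2 the count was 18 without the shallow libraries and 8 with the covariate, for preNeu 508 with the covariate, and for the mean 59 without a filter, 38 with only the 24 libraries of the 4 populations and 10 with the covariate. Without single libraries these counts were 53 to 88, 28 to 124, 485 to 1247 and 8 to 186, lowest without sepsis Ly6C- GMP replicate 2, sepsis proNeu2 replicate 3, control preNeu replicate 2 and control proNeu1 replicate 2. Of 149 called genes among those named, 100 kept their call and direction with the covariate, 124 without the shallow libraries and 95 against the fold of 1.5. The named genes were mostly those whose calls held in the alternatives, so these counts do not describe all called genes. Over all genes, 754 of the 2839 calls were kept in the same direction with the covariate. With the covariate Cebpb was at -0.29 ± 1.84 (adjusted p = 0.988), Rac1 was at -0.26 ± 0.25 (adjusted p = 0.685), Rps2 was at -0.34 ± 0.30 (adjusted p = 0.645), signs opposite to those without it but not distinguished from 0; Rac1 and Rps2 are part of the covariate. No paired analysis was possible because the labels give the libraries no shared replicate numbers. The cause of these changes was not tested.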
